A study of Homo sapiens with 7 samples.

Results

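The 2 kb upstream of the start of an average gene, positions -2000 to -1, were examined in global run-on sequencing (GRO-seq) profiles of MRC5VA cells, an immortalised line of human lung fibroblasts. The region was divided by position alone into 40 bins of 50 bp, out of 2440 such bins in each deposited profile, and it was read in each of the 7 libraries. Untreated cells (labelled 0 h) gave 1 library. The other 6, also 1 per condition, came from cells exposed to 15 J per square metre of ultraviolet C (UVC) and collected at 1 of 6 later times, namely 2, 5, 8, 10, 12 and 24 h. All 7 came from the same line in standard culture, with no other allele or agent named. In GRO-seq, isolated nuclei extend the transcripts of engaged RNA polymerases for a few minutes with a bromine-tagged nucleotide, so the captured RNA shows where polymerases were at work. Position 0 of the profiles is taken here as the transcription start, which the files do not state. The profiles average over genes and name none, so the cell line could not be checked against marker genes, and the sequence of a particular promoter could not be tied to a value.

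At many mammalian promoters, polymerases initiate in both directions from neighbouring sites within one nucleosome-free region. The product running away from the gene is usually a short, unstable RNA, and in run-on data it appears as a second, smaller peak upstream of the gene's own promoter-proximal peak, with a dip between. UVC joins adjacent pyrimidine bases in DNA, and such lesions stall elongating RNA polymerase II until they are repaired. The comparisons ask how nascent transcription before the start differed from that of untreated cells at each time after UVC. Whether the profiles hold 1 strand or both is not given in the sources used here, so the strand of the upstream signal cannot be told.

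The depth behind the upstream region was 169147 to 396382 reads per library, from 14722 to 91324 reads over each base, where a read counts once per gene it falls on. All intervals below are 95% intervals of counting error from these reads. The base-to-base scatter had 2.14 to 3.25 times the variance that counting gives, so intervals that include it would be 1.46 to 1.80 times as wide. No spread between cultures enters any interval, because each condition has 1 library, and no test between conditions was possible. All comparisons with untreated cells share the same 1 library, so agreement among the UV libraries in such comparisons is not independent. Coverage was spread over 250 bp per read, so features narrower than that are smoothed. The factor that scaled each library is not given in the sources used here, and ratios between libraries rest on the values as deposited unless another scale is named. In such bulk profiles, fewer active genes or cells and fewer polymerases per gene cannot be told apart.

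Every library had an upstream peak, and its height varied more between libraries than the level farther upstream did. Peak height is the mean deposited signal of the 50-bp bin at the most prominent upstream maximum. It was 5.998 ± 0.045 in untreated cells (± gives the 95% counting interval). It was 3.05 ± 0.034 after 2 h, 3.90 ± 0.040 after 5 h and 5.43 ± 0.047 after 8 h. It was then 4.83 ± 0.035 after 10 h, 3.88 ± 0.028 after 12 h and 6.05 ± 0.040 after 24 h. The peak was thus lowest after 2 h, higher after 5 h and 8 h, lower again after 10 h and 12 h, and highest of the UV libraries after 24 h. As a percentage of the untreated height it was 50.8% after 2 h, 65.0% after 5 h, 90.5% after 8 h, 80.6% after 10 h, 64.7% after 12 h and 100.9% after 24 h. The heights after 24 h and in untreated cells differed by less than counting error (log2 ratio 0.012, interval -0.0020 to 0.027), as did those after 5 h and 12 h (difference -0.018, interval -0.067 to 0.031). These were 2 of the 21 pairs of libraries. The other 19 differed by more than counting error. The lower heights after 2, 5 and 12 h kept their direction on both other scales tried, whereas with equal means between 100 and 120 kb the log2 ratio was 0.23 after 8 h and, within counting error of 0, 0.0098 after 10 h.

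**Figure D1:**
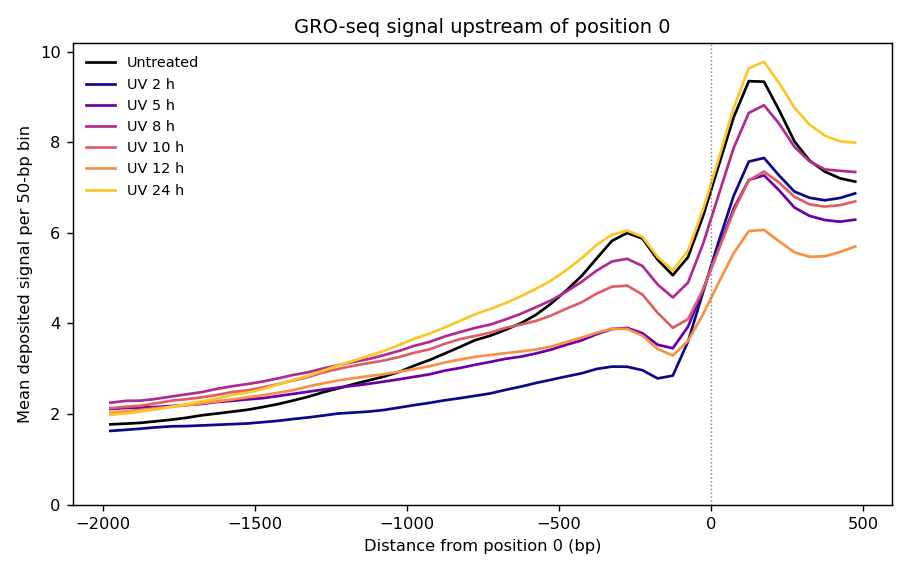
Mean deposited signal in 50-bp bins (vertical axis) against distance from position 0 in bp (horizontal axis) for the 7 libraries, 1 line each. All 7 lines show an upstream peak near -300 bp, which reaches 5.998 in untreated cells, 3.05 after 2 h and 6.05 after 24 h.

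The place of the peak hardly moved. It lay in the bin from -300 to -251 in 5 libraries and in the adjacent bin from -350 to -301 after 2 h and 12 h. In 10-bp bins the maximum started at -270 in untreated cells, at -280 after 8 h and 24 h, and at -300 in the other 4 libraries. These shifts are small against the 250 bp over which each read was spread.

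The signal did not reach a plateau within 2 kb, so the far upstream level, the mean of positions -2000 to -1501, is a reference and not a baseline. It was 1.91 ± 0.018 in untreated cells, 1.72 ± 0.017 after 2 h, 2.20 ± 0.020 after 5 h, 2.43 ± 0.021 after 8 h, 2.31 ± 0.017 after 10 h, 2.19 ± 0.014 after 12 h and 2.20 ± 0.017 after 24 h. Only the 2 h library lay below untreated cells on the deposited values (log2 ratio -0.15, counting SE 0.010). The direction after 2 h turned when all profiles were given the same total (0.086) or the same mean between 100 and 120 kb (0.34). In the other 5 libraries the log2 ratio lay between 0.19 after 12 h and 0.35 after 8 h, and it stayed above 0 on both of those scales. The levels after 5, 12 and 24 h could not be told apart by counting error in any of their 3 pairings.

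Peak excess is the peak height minus the far upstream level of the same library. It was 4.09 ± 0.049 in untreated cells, 1.33 ± 0.038 after 2 h and 1.70 ± 0.044 after 5 h. It was 2.997 ± 0.051 after 8 h, 2.52 ± 0.039 after 10 h, 1.70 ± 0.032 after 12 h and 3.85 ± 0.043 after 24 h. The excess after 2 h was therefore 32.5% of the untreated one, a larger loss than that of the peak height. It was 41.6% after 5 h, 73.4% after 8 h, 61.7% after 10 h, 41.5% after 12 h and 94.1% after 24 h. All 6 UV libraries lay below untreated cells in excess by more than counting error, with log2 ratios from -1.62 (counting SE 0.023) after 2 h to -0.087 (counting SE 0.012) after 24 h. The loss of excess kept its direction on all 3 scales and with a far upstream level taken over 1 kb.

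Peak height divided by the far upstream level does not depend on library scale. The upstream peak stood 3.14 ± 0.037 times as high as the far upstream level in untreated cells. It stood 1.77 ± 0.027 times as high after 2 h, 1.77 ± 0.024 times after 5 h, 2.23 ± 0.028 times after 8 h, 2.09 ± 0.022 times after 10 h, 1.78 ± 0.017 times after 12 h and 2.74 ± 0.027 times after 24 h. The ratios after 2, 5 and 12 h were equal within counting error in each of their 3 pairings, although the deposited peak heights ran from 3.05 to 3.90. After 24 h, where the height differed from that of untreated cells by less than counting error, this ratio was still below that of untreated cells (log2 ratio -0.19, counting SE 0.011), with the far upstream level above theirs.

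**Figure D2:**
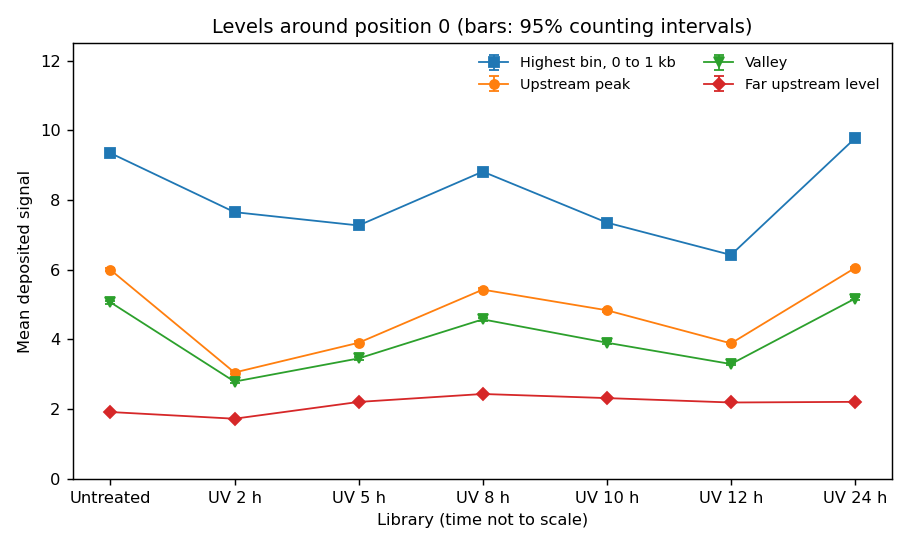
Mean deposited signal (vertical axis) of the highest bin between 0 and 1 kb, the upstream peak, the valley and the far upstream level in each library (horizontal axis, time not to scale), with bars for 95% counting intervals that are mostly smaller than the symbols. The far upstream level stays between 1.72 and 2.43 while the upstream peak runs from 3.05 to 6.05.

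Between the upstream peak and position 0 lay a shallow valley in every library. Its lowest bin ran from -150 to -101 in 6 libraries and from -200 to -151 after 2 h. The valley level was 5.06 in untreated cells, 2.79 after 2 h, 3.45 after 5 h, 4.57 after 8 h, 3.90 after 10 h, 3.29 after 12 h and 5.17 after 24 h. As a percentage of the peak the valley was 84.4% ± 0.77 in untreated cells. It was 91.4% ± 1.20 after 2 h, 88.5% ± 1.07 after 5 h, 84.3% ± 0.87 after 8 h, 80.7% ± 0.72 after 10 h, 84.7% ± 0.86 after 12 h and 85.5% ± 0.67 after 24 h. The valley was shallowest after 2 h and deepest after 10 h, and after 8 h and 12 h it could not be told from that of untreated cells. The valley bins lie within the 250-bp spread of a read from position 0, so reads at the start may add to their level. The drop from peak to valley was 0.93 in untreated cells and 0.26 after 2 h (counting SE 0.019).

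From the valley toward the start the signal rose again. Between the valley and the bin from 0 to 49 bp it climbed by 2.40 in untreated cells and by 3.004 after 2 h, the library with the lowest peak. The climb was 2.20 after 5 h, 2.25 after 8 h, 1.71 after 10 h, 1.598 after 12 h and 2.45 after 24 h. In the bin next to position 0 (-50 to -1) the signal was 6.38 in untreated cells, 4.70 after 2 h, 4.75 after 5 h, 5.77 after 8 h, 4.76 after 10 h, 4.21 after 12 h and 6.53 after 24 h. Relative to the upstream peak, this last bin was 154.2% after 2 h and 121.7% after 5 h, against 106.4% in untreated cells and 98.4% after 10 h. This bin lies within the 250-bp spread of a read from position 0.

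The upstream peak lost more than the downstream one early after UVC. The highest bin between 0 and 1 kb, called the downstream peak here, was 9.35 in untreated cells and 7.65 after 2 h. Its log2 ratio was -0.29, against -0.98 for the upstream peak. The upstream peak was 64.2% ± 0.61 as high as the downstream one in untreated cells. It was 39.8% ± 0.52 as high after 2 h, 53.7% ± 0.67 after 5 h, 61.6% ± 0.67 after 8 h, 65.7% ± 0.62 after 10 h, 60.5% ± 0.56 after 12 h and 61.9% ± 0.51 after 24 h. This share does not depend on library scale, and on the log2 scale it stood from untreated cells by -0.69 after 2 h (interval -0.71 to -0.66), -0.26 after 5 h (interval -0.28 to -0.23), -0.060 after 8 h, 0.035 after 10 h, -0.086 after 12 h and -0.052 after 24 h. From 8 h on, the upstream and downstream peaks were thus closer to their untreated proportion than after 2 h and 5 h, also after 10 h and 12 h where both were low. Against the highest bin of 0 to 1 kb, each of these later shares still differed from that of untreated cells by more than counting error. The share was lower after 8, 12 and 24 h and higher after 10 h. After 12 h, however, the highest downstream bin lay from 900 to 949 bp. Against the highest bin within 500 bp the 12 h share was 64.0%, inside the counting interval of the untreated share (64.2% ± 0.61). The lower share after 12 h thus rests on where that bin lay. The mean of positions 500 to 999 was above that of 0 to 499 after 2 h (7.34 against 6.91). The same held after 10 h (6.95 against 6.70) and 12 h (6.21 against 5.62). The downstream peak after 12 h is therefore not a measure of promoter-proximal signal alone. In all other libraries its bin lay within 500 bp of position 0.

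**Figure D3:**
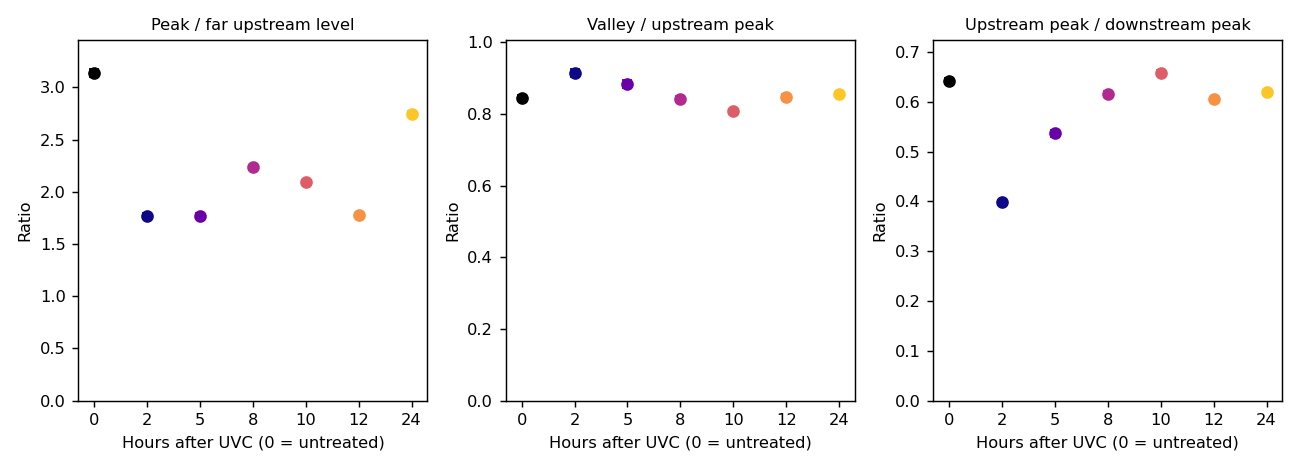
Ratios that do not depend on library scale (vertical axes) in untreated cells and by hours after UVC (horizontal axes, not to scale): upstream peak over far upstream level, valley over upstream peak, and upstream peak over the highest bin between 0 and 1 kb, with bars for 95% counting intervals. The upstream-to-downstream ratio is 0.40 after 2 h and at least 0.605 from 8 h on, whereas the peak-to-far ratio is as low after 12 h (1.78) as after 2 h (1.77).

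The width of the peak was described by its upstream flank, because the valley stayed above the level midway between the far upstream level and the peak in all 7 libraries and a full width at that level does not exist. This measure and the second width below were chosen after the values were seen. The flank length, from the centre of the peak bin to that midway level, was 367 bp in untreated cells. It was 468 bp after 2 h, 525 bp after 5 h, 482 bp after 8 h, 589 bp after 10 h, 616 bp after 12 h and 526 bp after 24 h. The flank was thus longer in every UV library than in untreated cells, and longest after 12 h. The width midway between valley and peak was 175 bp in untreated cells, 205 bp after 2 h, 203 bp after 5 h, 217 bp after 8 h, 268 bp after 10 h, 275 bp after 12 h and 205 bp after 24 h. These widths are close to the 250 bp of the read spreading.

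**Figure D4:**
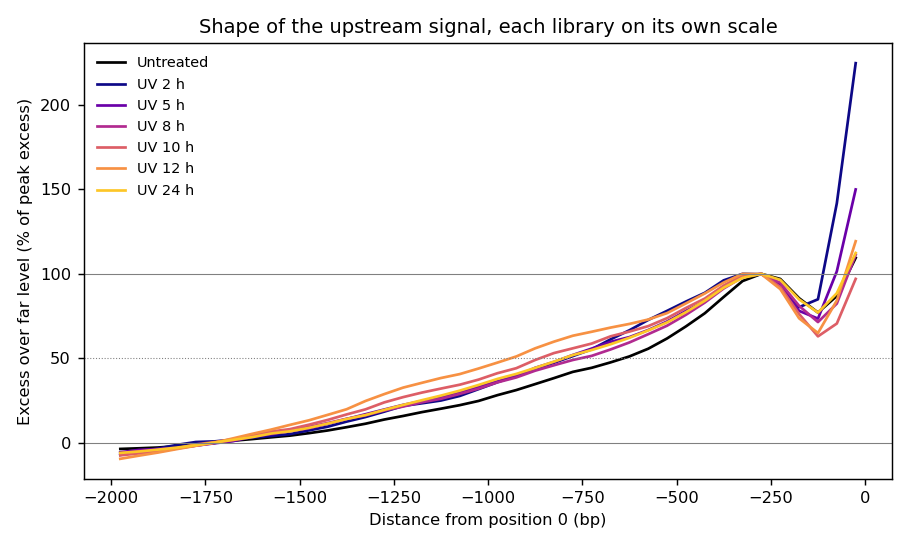
Signal above the far upstream level as a percentage of the peak excess of the same library (vertical axis) against distance from position 0 in bp (horizontal axis), 1 line per library. From about -1500 bp to the peak every UV line lies above the untreated one, with 47.6% after 12 h against 28.3% in untreated cells in the bin from -1000 to -951.

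The slope toward -2000 was taken by least squares over positions -2000 to -1001, in deposited signal per kb, with positive values for signal that rises toward the gene. It was 1.23 ± 0.045 in untreated cells, 0.52 ± 0.042 after 2 h, 0.71 ± 0.049 after 5 h, 1.22 ± 0.053 after 8 h, 1.24 ± 0.042 after 10 h, 0.99 ± 0.036 after 12 h and 1.63 ± 0.042 after 24 h. Over these positions the 2 h and 5 h libraries were the flattest and the 24 h library the steepest. Those after 8 h and 10 h could not be told from untreated cells. Relative to the level itself, signal fell outward by 5.33% per 100 bp in untreated cells, 2.75% after 2 h, 2.91% after 5 h, 4.35% after 8 h, 4.58% after 10 h, 3.99% after 12 h and 6.03% after 24 h. On that relative scale only 24 h was steeper than untreated cells, and the 2 h and 5 h libraries could not be told apart. The libraries after 8 h and 10 h, like those after 2, 5 and 12 h, were flatter than untreated cells by more than counting error there. Over the farthest 500 bp alone, the slope in signal per kb was 0.94 after 8 h and 0.90 after 10 h (counting SE 0.061 and 0.047). In untreated cells it was 0.75 (counting SE 0.050) and after 12 h also 0.75. The place of these libraries against untreated cells thus depends on the window. In the farthest bin (-2000 to -1951) the signal was 1.77 in untreated cells, 1.63 after 2 h, 2.11 after 5 h, 2.25 after 8 h, 2.13 after 10 h, 2.03 after 12 h and 1.98 after 24 h.

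The share of the 2-kb signal lying in each 500-bp window does not depend on library scale either. Positions -500 to -1 held 40.5% of it in untreated cells, 34.0% after 2 h, 32.6% after 5 h, 35.1% after 8 h, 33.2% after 10 h, 31.3% after 12 h and 37.5% after 24 h. Positions -2000 to -1501 held 14.0% in untreated cells, 18.4% after 2 h, 18.8% after 5 h, 16.7% after 8 h, 17.2% after 10 h, 18.5% after 12 h and 14.5% after 24 h. The signal of every UV library thus lay farther from the start than that of untreated cells, least so after 24 h. The window from -1000 to -501 held nearly the same share in all libraries, 26.3% to 28.1%.

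Bin by bin, the ratio to untreated cells was lower at the peak than at -1000 bp in every UV library. After 2 h all 40 bins lay below untreated cells, with log2 ratios from -0.11 in the bin from -1900 to -1851 to -0.99 in the bin from -250 to -201. After 5 h the ratio ran from 0.26 (-1950 to -1901) to -0.63 (-250 to -201), and signal first lay below untreated cells in the bin starting at -1200. After 8 h it ran from 0.36 (-1950 to -1901) to -0.16 (-250 to -201), changing sign at -500. After 10 h it ran from 0.29 (-1800 to -1751) to -0.42 next to position 0, changing sign at -650. After 12 h it ran from 0.21 (-1900 to -1851) to -0.66 (-250 to -201), changing sign at -1000. After 24 h no bin lay below untreated cells, and the ratio was highest, 0.27, in the bin from -1050 to -1001 and lowest, 0.0095, in the bin from -250 to -201. The bin from -250 to -201, on the gene side of the peak, thus had the lowest value in 5 of the 6 UV libraries. Other bins came close to it. After 8 h the bin from -100 to -51 also had -0.157, and after 12 h that from -200 to -151 had -0.654 against -0.655. After 24 h the peak bin had 0.0125 against 0.0095 (counting SE 0.0075). All ratios share the 1 untreated library, so the recurrence of this bin is not independent between libraries. Where the sign changed depends on scale. Scaled to the profile's own total, the change lay at -1500 after 2 h, -900 after 5 h, -300 after 8 h, -550 after 10 h, -1000 after 12 h and -300 after 24 h, where the ratio then fell no lower than -0.0074. With equal means between 100 and 120 kb, 22 of the 40 bins lay above untreated cells after 2 h, with the change at -950, and all 40 lay above them after 8 h and after 24 h. On that scale the change lay at -500 after 5 h, -250 after 10 h and -600 after 12 h.

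**Figure D5:**
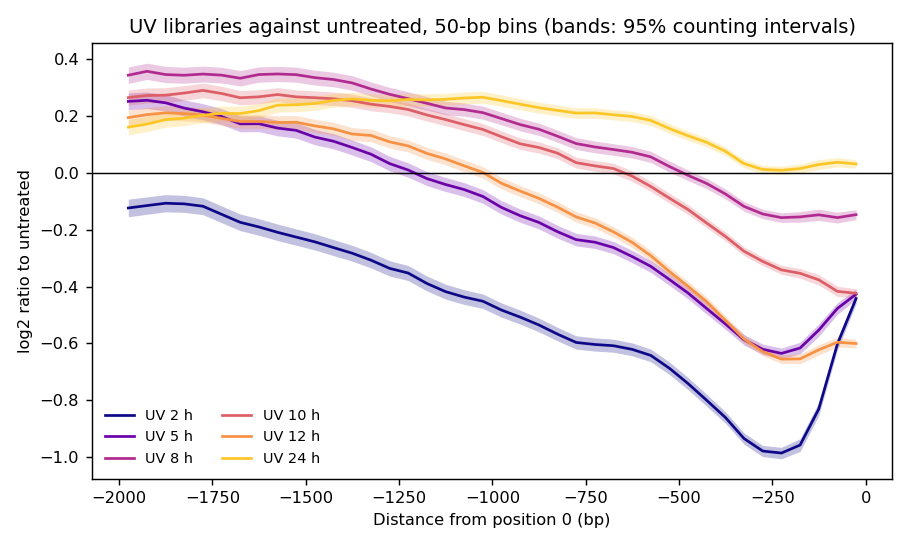
Log2 ratios of the 6 UV libraries to untreated cells (vertical axis) in 50-bp bins against distance from position 0 in bp (horizontal axis), on deposited values, with bands for 95% counting intervals. The 2 h line reaches -0.99 near the peak, the 5 h and 12 h lines nearly coincide there at -0.63 and -0.66, and the 24 h line stays above 0.

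Bins were also counted when they differed from untreated cells by at least 1.25-fold, that is, at or under 80% for lower bins. After 2 h 26 of the 40 upstream bins were lower, all from -1300 to -1, against 73.6% of all bins of the profile. After 5 h 12 of 40 were lower, from -600 to -1, against 53.8% of all bins. The upstream shares of 65% and 30% at these times were thus below that of the profile as a whole, most of which is gene body. After 10 h 5 of 40 were lower, from -250 to -1, against 9.75% of all bins. After 12 h 11 of 40 were lower, from -550 to -1, against 0.902% of all bins, so that 11 of the 22 such bins in the profile were upstream of the start. On the deposited scale higher bins were found upstream after 8 h only. There 12 of 40, from -2000 to -1401, were higher, against 0.697% of all bins, and these were 12 of the 17 such bins in the profile. No upstream bin was lower after 8 h, against 39.9% of all bins. The shares of higher bins in the profile were 10.9% after 2 h, 7.79% after 5 h, 0.41% after 10 h and 5.7% after 12 h, with none of them upstream on the deposited scale. These counts depend on scale. On the 2 other scales bins were counted upstream only, so the counts below cannot be set against a share of all bins. With equal totals 9 upstream bins were higher after 5 h, 20 after 8 h and 12 after 10 h, and lower bins numbered 16 after 2 h, 6 after 5 h, 2 after 10 h and 11 after 12 h. With equal means between 100 and 120 kb 6 upstream bins were higher after 2 h, 20 after 5 h, 32 after 8 h, 27 after 10 h and 17 after 12 h, and lower bins were 6 after 2 h and 6 after 12 h. After 24 h no bin passed in either direction.

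Successive libraries differed in which positions moved. From 2 h to 5 h nearly the whole region was higher by the same factor: the far upstream level by 1.28, the peak height by 1.28 and the peak excess by 1.28 times, and single bins from -2000 to -151 by 1.24 to 1.30 times. From -150 on the ratio fell bin by bin toward position 0, to 1.01 in the bin next to it. From 5 h to 8 h the far upstream level was higher by 1.104 times and the excess by 1.76 times, so the peak moved more than its surroundings. From 8 h to 10 h the far upstream level was 0.951 and the excess 0.842 times the earlier value. From 10 h to 12 h these were 0.945 and 0.673 times. From 12 h to 24 h the far upstream level did not differ beyond counting error (1.008 times) while the excess was 2.27 times as large. All of these factors rest on the deposited scale.

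For 5 upstream measures, exact two-sided permutation tests asked whether they were related to time among the 6 UV libraries, with p-values adjusted by the Benjamini-Hochberg method over the 5. None passed 0.05 after adjustment. The far upstream slope had Spearman's rho 0.83 (exact permutation p = 0.058, adjusted p = 0.29) and Pearson's r 0.89 (exact permutation p = 0.015, adjusted p = 0.076). For the peak excess rho was 0.60 (exact permutation p = 0.24, adjusted p = 0.40) and r was 0.81 (exact permutation p = 0.042, adjusted p = 0.10). Without the 2 h and 24 h libraries, the farthest from the median time, r over the remaining 4 was 0.54 for the slope and 0.0085 for the excess, so the relation of the excess rests on those 2 libraries. The upstream peak as a ratio to the downstream peak had rho 0.71 (exact permutation p = 0.14, adjusted p = 0.34) and r 0.61 (exact permutation p = 0.22, adjusted p = 0.36), with r 0.70 over the middle 4 libraries. The far upstream level had rho 0.31 (exact permutation p = 0.56, adjusted p = 0.56) and r 0.37 (exact permutation p = 0.38, adjusted p = 0.39), with r -0.084 over the middle 4. The valley-to-peak ratio had rho -0.49 (exact permutation p = 0.36, adjusted p = 0.44) and r -0.44 (exact permutation p = 0.39, adjusted p = 0.39), with r -0.66 over the middle 4. The libraries after 2, 5 and 8 h were the least deep and those after 10, 12 and 24 h the deepest. This split by depth is also a split by time, so depth and time cannot be told apart by it. Within the least deep 3, rho was 1 for far upstream level, excess, slope and upstream-to-downstream ratio and -1 for the valley. Within the deepest 3 it was 0.5 for excess and slope, -0.5 for far upstream level and upstream-to-downstream ratio and 1 for the valley. The smallest two-sided p that an exact permutation of 3 libraries allows is 0.33.

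As background from the reference alone, the annotation (GENCODE 44 mapped to GRCh37) shows what lies upstream of protein-coding starts on chromosomes other than Y. Of 20098 such genes, 14.7% had another gene's start on the opposite strand within positions -500 to -1, against 1.16% within -2000 to -1501. A gene on the same strand covered part of -500 to -1 for 13.1% and part of -2000 to -1501 for 15.2%. Among the 2961 genes at least 120 kb long that order turned, with 10.4% near the start and 9.22% far from it, while another start on the opposite strand within -500 to -1 was found for 14.3%. Over the 20078 of all these genes with a complete sequence, GC content was 45.2% from -2000 to -1501 and 55.3% from -500 to -1. Pairs of neighbouring bases that are both pyrimidines on either strand, the sites where UVC can join bases, made up 56.7% and 57.3% of positions in these windows. The pairs TT or AA, which are a pair of thymines on either strand, fell from 17.2% to 12.6% toward the start. The genes that the authors averaged are not given in the sources used here, so these shares describe the annotation and not the libraries.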

How the data were processed

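Nascent RNA was sequenced in 7 libraries, 1 per condition, as single-end 51-bp reads from strand-specific libraries per the labels' protocols. For each library the authors deposited an average gene profile, a signal (average coverage) value per base from -2000 to 120 kb. BWA 0.5.9 and the build hg19/GRCh37 are named in the submitters' processing notes. Strand handling, gene list, read extension and scaling are not given in the sources used here.

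All values of a library were whole multiples of 1 step (within 0.01 of a step), which gave reads. Differences between neighbouring bases were most negatively correlated 250 bp apart (autocorrelation at most -0.37), which was taken as the spread of a read. Recovered depth was 12003109 to 25795781 reads per profile. Counting errors were propagated from these reads to each bin mean, difference, ratio and slope, and cover counting error only.

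The upstream peak is the most prominent local maximum of 50-bp bins from -1500 to -1, accepted where peak minus valley exceeded 2 counting standard errors. The valley is the lowest bin between it and the highest bin of 0 to 1 kb. Libraries were compared as log2 ratios of deposited values without a pseudocount. Bins named by rule are the peak, the valley, both ends and the highest and lowest ratio of each library. The bins from -1000 to -951, -100 to -51, 0 to 49 and 900 to 949 were named after their values were seen. The region and its measures were chosen with earlier results of these data known. Alternatives were other bin sizes, a longer far upstream window, 2 other scales, other slope measures and leaving out a library. Code was tested on simulated profiles. Python 3.11.15, numpy 2.4.6 and scipy 1.17.1 were used.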

Additional observations from a re-analysis of the deposited data

Results flagged for a closer look

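The far upstream level after 2 h differed in direction from that at the other times. Its log2 ratio to untreated cells was -0.15 on the deposited values, whereas the other 5 UV libraries lay above untreated cells, at 0.20 after 5 h, 0.35 after 8 h, 0.27 after 10 h, 0.19 after 12 h and 0.21 after 24 h. The difference between the times was not tested, since each has 1 library. The 2 h value turned positive on both other scales that were tried.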

How the results depend on the processing

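Values are listed in time order, with untreated cells ahead of 2 h where they have a value. A value with no test counted as moved when it left its 95% counting interval, or for positions and distances when it moved by over 50 bp, which none did in 100-bp or 10-bp bins. No paired analysis was possible because no group holds a second library.

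In 100-bp bins the peak height was 5.94 in untreated cells, 3.84 after 5 h, 5.35 after 8 h, 4.74 after 10 h, 3.84 after 12 h and 5.98 after 24 h. The valley-to-peak ratio in 100-bp bins was 0.882, 0.932, 0.908, 0.882, 0.859, 0.876 and 0.889. With the far upstream level over 1 kb the peak excess was 3.78, 1.20, 1.52, 2.69, 2.21, 1.45 and 3.44. The slope over the farthest 500 bp was 0.75, 0.35, 0.47, 0.94, 0.90, 0.75 and 1.124 per kb. Unlike over 1 kb, the values after 8 h and 10 h there lay above that of untreated cells, and the 12 h value matched it. The natural-log slope over 1 kb was 0.55, 0.28, 0.29, 0.45, 0.47, 0.41 and 0.62, in another unit, so that it shows the order and not a movement. The upstream-to-downstream ratio after 12 h was 0.64 with the downstream peak sought within 500 bp, an alternative chosen after seeing the data.

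Scaled to the profile's own total, the log2 ratio of the far upstream level was 0.086 after 2 h (reversed), then 0.37, 0.46, 0.34 and 0.22 up to 12 h. That of the peak height was -0.74, -0.46, -0.026, -0.24, -0.60 and -0.0045 (after 24 h within counting error of 0, as on deposited values), and that of the excess -1.38, -1.10, -0.33 and -0.63 up to 10 h. Scaled to the mean between 100 and 120 kb, the far upstream level gave 0.34 (reversed), 0.62, 0.72, 0.60, 0.46 and 0.24. The peak height gave -0.49, -0.21, 0.23 (reversed after 8 h), 0.0098 (positive after 10 h, but within counting error of 0), -0.36 and 0.052, and the excess -1.13, -0.85, -0.076, -0.37, -0.997 and -0.048. The reversals follow from the constant that each scale adds to a library, which for the 100 to 120 kb scale ran from 0.49 after 2 h to 0.040 after 24 h. With the far upstream level over 1 kb its log2 ratio was -0.26, 0.10, 0.30, 0.24, 0.14 and 0.24, and that of the excess was -1.31, -0.49, -0.77, -1.39 and -0.14 from 5 h on.

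No relation to time passed 0.05 after adjustment, for rho or for r, under the 2 other scales, the longer far upstream window or leaving out the 2 h or the 24 h library. The scale to 100 to 120 kb and the runs with r were added after seeing the data. The lowest adjusted exact permutation p of r over all of these was the 0.076 of the slope on deposited values. Only the far upstream level changed sign. With profiles scaled to their own total its rho was -0.086 and its r -0.14, and with equal means between 100 and 120 kb they were -0.37 and -0.47. Leaving out the 2 h or the 24 h library gave it a rho of -0.20 to 0.30 and an r of -0.34 to 0.69, the lower value being that without the 2 h library. For rho that range was 0.30 to 0.30 for the excess, -0.70 to -0.10 for the valley-to-peak ratio, 0.70 to 0.70 for the slope and 0.50 to 0.70 for the upstream-to-downstream ratio.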
